A study of Mus musculus with 12 samples.

Results

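All 3 Gmppb mutant mouse lines were set together against wild type in gastrocnemius, the large calf muscle, to list the genes that differed from wild type in the same direction in every line. Bulk RNA sequencing covered 12 mice aged 32 weeks on a standard diet, 3 in each of 4 groups, and the comparison used all 12 of the series. WT mice carried no engineered allele. KO mice were heterozygous for a Cas9 deletion, described in the labels as exons 2 and 3 and 303 bp. P32L mice were heterozygous for a C-to-T substitution at base 95, which replaces proline by leucine at residue 32 of GMPPB. R287Q mice were homozygous for a G-to-A substitution at base 860, which replaces arginine by glutamine at residue 287. The alleles are in the mouse genome and not limited to muscle fibres, and the lines differ both in the allele and in the number of copies of it. In no line were both copies of Gmppb deleted. Sex, litter, hour of collection and feeding state are not in the labels.

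Gmppb encodes the catalytic subunit of GDP-mannose pyrophosphorylase. The enzyme makes GDP-mannose, the donor of the mannose in N-linked glycans, in GPI anchors and in the O-mannosyl glycans of alpha-dystroglycan. Those O-mannosyl glycans bind laminin and tie the muscle fibre to its basal lamina, and recessive GMPPB mutations in people cause muscular dystrophies of the dystroglycanopathy group and a congenital myasthenic syndrome.

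For each gene the mean of the KO, P32L and R287Q group means was compared with the WT mean. The deposited unit was log2(TPM + 1), where TPM is a transcript's share of its library per unit of length, and a difference given here is a difference of means on that log2 scale, with each line counting equally. Of 30488 gene symbols, 9152 averaged 1 TPM or more across the 12 mice and were tested with limma. Of these, 3965 genes (43.3%) lay on one side of WT in all 3 lines, 1849 higher (20.2%) and 2116 lower (23.1%). The 3 differences share the same WT mice, so a common direction is not 3 separate observations. At the edge of the filter, Gm10180 and Frmd8 had means of 1.0007 and 1.0012 TPM just inside it, and Zfp780b and Ripk3 had 0.9997 and 0.9995 TPM just outside.

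The muscle fibre genes Acta1 (16079 to 23879 TPM), Ckm (1943 to 3288 TPM) and Myh4 (2397 to 4869 TPM) were high in every mouse. Myh4 is the myosin of fast fibres. The labels call the cell type muscle cells, yet transcripts of blood, immune, fat, nerve and vessel cells were present as well. In bulk tissue, fewer cells of a type and less RNA per cell cannot be told apart. Over all genes, mice of the same group had correlations of 0.984 to 0.992, and mice from different groups 0.974 to 0.991. Sequencing depth is unknown, because TPM keeps none, so the precision comes from the spread between mice alone. A limma p sets a difference against that spread, which is estimated partly from other genes of similar level.

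No gene passed the test. With Benjamini-Hochberg adjustment over the 9152 genes, limma called 0 genes (0%) at an adjusted p under 0.05, and the lowest adjusted p was 0.259. Other settings of the same test called 0 to 29 genes, the 29 being of 30488 tested with no filter. At an unadjusted p under 0.05 there were 503 genes (5.50%), of which 268 were higher in the mutant lines (2.93%) and 235 lower (2.57%). An even spread of p-values would put 5% of genes there. Of the 503 genes, 475 had one direction in all 3 lines and 28 did not. The p tests the mean of those same 3 differences, so this share follows largely from the selection and is not read as agreement between lines. The typical gene was measured to within 0.198 of its log2 difference (median half-width of the 95% interval). Over all 9152 genes the median difference was -0.01. The values below are therefore those of the genes that led the ranking, none of which passed.

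**Figure D1:**
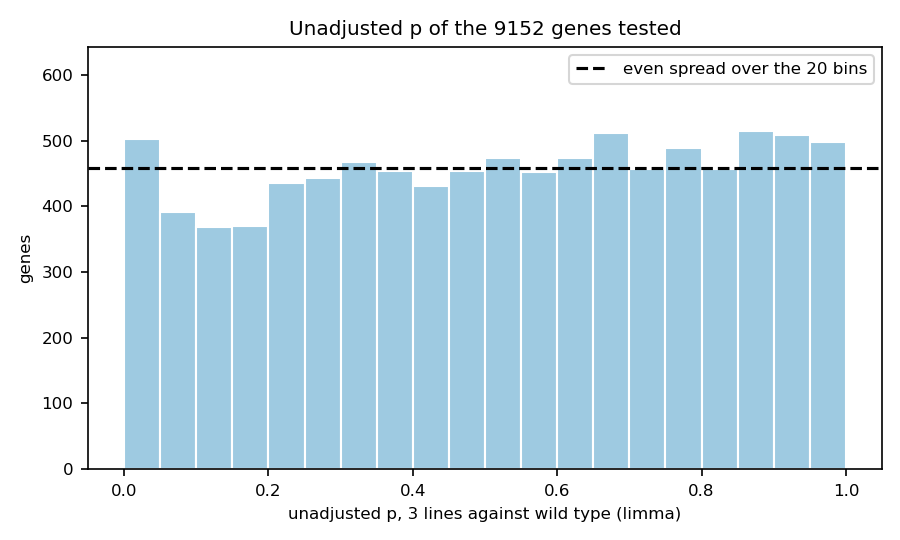
Histogram of the unadjusted limma p of the 9152 genes for the 3 mutant lines together against WT, in 20 bins of 0.05, with a dashed line at the height of an even spread. The lowest bin holds 503 genes, more than the 392 and 369 of the bins next to it but fewer than the 514 and 512 of the fullest bins farther right.

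Setting each line against WT on its own, with the same limma fit and adjustment, called 1 gene in KO (0.0109%), 4 in P32L (0.0437%) and 0 in R287Q (0%). A moderated F test among the 3 lines called 4 genes (0.0437%). Of the genes described below, Per1 and Aplnr were among the P32L calls.

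The edited gene itself stood at the same level in all groups within the spread of the mice. Gmppb lies on chromosome 9 (108049242 to 108052801 on the plus strand of mm10). WT mice had 4.42, 3.02 and 3.61 TPM. KO mice had 3.37, 3.62 and 3.33 TPM, P32L mice 3.57, 3.55 and 3.26 TPM, and R287Q mice 3.03, 4.09 and 4.16 TPM. All 9 mutant mice lay within the WT range. The difference was -0.04 (SE 0.10, 95% interval -0.25 to 0.18, limma adjusted p = 0.999), and an exact two-sided permutation test over the 220 ways to draw 3 WT mice from 12 gave p = 0.736, where the smallest possible is 0.00909. Its sign differed between lines (-0.07 in KO, -0.06 in P32L and 0.02 in R287Q), so Gmppb is not among the genes with one direction. A gene-level TPM shows neither the substitutions nor the deletion apart from the rest of the gene and so checks no label. Gmppb overlaps Rnf123 on the annotation, and the kit does not mark strand, so reads in the overlap cannot be assigned to one gene.

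Genes that work with Gmppb lay close to WT. Of the 14 measured genes of GDP-mannose supply, which make mannose phosphates and GDP-mannose or use it first, 4 were higher and 10 lower, none passed, and the median difference was -0.04. This count turned to 10 higher and 4 lower without WT replicate 1. Over all 9152 genes, 4298 were higher with all mice, and 5971, 3927 and 3181 without WT replicate 1, 2 and 3. List counts with a WT mouse left out, here and below, stand beside these shifts of all genes. Gmppa, the regulatory partner of Gmppb, was at 6.82 to 7.79 TPM in WT and 5.80 to 8.29 TPM in the mutant mice, a difference of -0.08 (SE 0.09, limma adjusted p = 0.999). Of 10 genes of dystroglycan and its O-mannosyl glycosylation, 1 was higher and 9 lower (median -0.06), and 4 of the 9 were lower in every line. It was 4 higher and 6 lower without WT replicate 1, with a median of -0.0037. B4gat1, which adds the glucuronic acid that primes the laminin-binding glycan, was at 11.4 to 28.1 TPM in WT against 7.87 to 16.5 TPM in the mutants. Its difference was -0.42 (SE 0.26, limma adjusted p = 0.999), and the groups overlapped. Pomgnt2, which extends O-mannose, differed by -0.16 (adjusted p = 0.999), and Dag1, dystroglycan itself, by -0.13 (adjusted p = 0.999). All 3 values rested on WT replicate 1, without which B4gat1 differed by -0.10, Pomgnt2 by -0.0053 and Dag1 by -0.0049.

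The dystrophin complex and basal lamina list had 18 measured genes, 5 higher and 13 lower, with a median of -0.05. Nos1, the neuronal nitric oxide synthase held at the membrane by dystrophin and syntrophin, was its leading member. It was at 1.34 to 1.74 TPM in WT and 0.834 to 1.55 TPM in the mutants, with a median of 1.26 TPM, a difference of -0.24 (SE 0.10, limma adjusted p = 0.888). N-glycan assembly genes split 8 higher and 12 lower of 20 around a median of 0.00. These counts turned as well without WT replicate 1, to 14 higher and 4 lower for the dystrophin complex and 18 higher and 2 lower for N-glycan assembly. The count over all genes turned too, to 5971 higher and 3181 lower.

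Of the 10 higher genes of lowest p with one direction in all lines, 3 (Per1, Trim63 and Cebpb) were on the list of glucocorticoid-induced and atrophy genes and 2 (Nr4a3 and Maff) on that of immediate-early genes. Nr4a3 and Maff averaged under 1 TPM in WT and entered the test through the mutant mice, so they could only be higher. Lists and members were chosen with earlier results of these data known, so these memberships and all list counts are descriptions only. Per1 encodes a repressor of the circadian clock that glucocorticoids also induce. It was at 4.11, 3.64 and 3.05 TPM in WT and 3.35, 5.75 and 6.68 TPM in KO. P32L mice had 12.2, 10.6 and 10.8 TPM and R287Q mice 8.93, 7.22 and 6.72 TPM. Every P32L and R287Q mouse exceeded all WT mice, whereas KO replicate 1 lay among them. The difference was 0.91 (SE 0.15, 95% interval 0.58 to 1.24, limma adjusted p = 0.259), made up of 0.41 in KO, 1.41 in P32L and 0.90 in R287Q. Against WT alone, P32L passed (adjusted p = 0.0308). Per1 also passed for the lines together without KO replicate 1 (0.99, adjusted p = 0.0144) and without the KO line (1.16, adjusted p = 0.0119). The F test among lines gave an adjusted p of 0.189.

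Trim63 encodes MuRF1, a muscle ubiquitin ligase whose transcript is used as a marker of atrophy. It was at 39.6, 33.5 and 34.6 TPM in WT and 45.5, 48.7 and 44.4 TPM in KO. P32L mice had 50.7, 51.1 and 54.1 TPM and R287Q mice 40.4, 44.0 and 44.4 TPM. All 9 mutant mice lay above all 3 WT mice, the nearest pair being R287Q replicate 1 and WT replicate 1. The difference was 0.38 (SE 0.07, 95% interval 0.22 to 0.53, limma adjusted p = 0.259). Across the 9152 genes, 67 (0.732%) had all 9 mutant mice on one side of all 3 WT mice, 37 of them higher (0.404%) and 30 lower (0.328%). Labels drawn at random from the 220 assignments would on average put a fraction of 0.00909 of genes in this class. The observed 0.732% was below that fraction. A lack of overlap, here and for the genes below, is therefore not by itself read as a difference.

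Cebpb, a transcription factor induced by glucocorticoids and cytokines, was also without overlap. WT mice had 10.1, 8.05 and 6.04 TPM, KO 12.2, 20.4 and 22.5 TPM, P32L 17.6, 13.6 and 13.1 TPM, and R287Q 10.9, 11.1 and 13.0 TPM. KO and P32L reached the highest levels, and R287Q replicate 1 stood just above WT replicate 1. The difference was 0.80 (SE 0.18, limma adjusted p = 0.344). Cebpb overlaps Tmem189 on the annotation. In all, 18 of the 19 measured glucocorticoid-induced and atrophy genes were higher (median 0.25, against -0.01 over all genes), and 15 were higher in every line. Without WT replicate 3 it was 13 of 19, with a median of 0.16, where 3181 of all 9152 genes were higher. At an unadjusted p under 0.05 there were 8 higher and 1 lower, against 2.93% and 2.57% of all genes. The lower one was Mstn, myostatin, an inhibitor of muscle growth, at 46.3 to 52.6 TPM in WT and 34.5 to 52.9 TPM in the mutants (-0.26, SE 0.10, limma adjusted p = 0.836). The summed level of the list was 268 to 368 TPM in WT, 312 to 406 in KO, 436 to 447 in P32L and 333 to 366 in R287Q, so P32L stood apart and the other groups overlapped.

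Of all genes, Pdk4 had the largest difference in its least affected line. Pdk4 encodes the kinase that shuts pyruvate dehydrogenase during fasting and so spares glucose. It was at 17.0, 32.0 and 24.2 TPM in WT and 39.8, 75.9 and 117 TPM in KO. P32L mice had 106, 40.02 and 47.4 TPM and R287Q mice 100.1, 88.2 and 52.4 TPM. All mutant mice lay above WT, but within each line they spread over as much as 2.95-fold. The difference was 1.495 (SE 0.36, 95% interval 0.71 to 2.28, limma adjusted p = 0.403), with 1.54 in KO, 1.27 in P32L and 1.67 in R287Q.

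Ucp3, an inner mitochondrial membrane protein whose transcript is known to rise with fatty acid supply, was at 12.1, 8.80 and 9.35 TPM in WT. KO mice had 10.8, 20.3 and 21.0 TPM, P32L 19.5, 14.9 and 14.7 TPM, and R287Q 19.9, 20.3 and 17.98 TPM. Only KO replicate 1 fell within the WT range. The difference was 0.74 (SE 0.18, limma adjusted p = 0.397). Angptl4, a lipoprotein lipase inhibitor induced by fatty acids, ranged from 0.193 to 1.10 TPM in WT and from 0.621 to 4.51 TPM in the mutants (0.86, SE 0.41, limma adjusted p = 0.946). Of 21 measured genes of the fasting fuel switch, 19 were higher and 2 lower, 14 were higher in all lines, and the median was 0.09. Without WT replicate 3 it was 11 higher and 10 lower, where 3181 of all 9152 genes were higher. Only Pdk4 and Ucp3 had an unadjusted p under 0.05. Angptl4 averaged under 1 TPM in WT and entered the test through the mutant mice, so it could only be higher. Of the other 20 genes of the list, 18 were higher, with a median of 0.09. Arrdc2, an arrestin-domain gene, was at 7.81, 7.79 and 4.24 TPM in WT and 5.79 to 27.6 TPM in the mutants, highest in R287Q (27.6, 16.9 and 23.0 TPM), with a difference of 0.97 (SE 0.27, limma adjusted p = 0.554). Irs2, an adaptor of the insulin receptor, differed by 0.44 (limma adjusted p = 0.557), by 1.03 in P32L but 0.12 in KO and 0.17 in R287Q.

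The promoters of the leading genes are shown because Per1, Trim63 and Pdk4 lay in the same direction in every line and belong to programmes with well-known DNA motifs. Each runs from 250 bases before to 50 after a RefSeq start, on GRCm38.p6, the assembly named mm10. Capitals mark the E-box CACGTG, bound by the clock activators, in Per1 (chr11:69098699-69098998, plus strand), and the FOXO motif TGTTTAC in Trim63 (chr4:134314870-134315169, plus strand). Pdk4 (chr6:5496229-5496528, minus strand) holds no searched motif in this window.
Per1: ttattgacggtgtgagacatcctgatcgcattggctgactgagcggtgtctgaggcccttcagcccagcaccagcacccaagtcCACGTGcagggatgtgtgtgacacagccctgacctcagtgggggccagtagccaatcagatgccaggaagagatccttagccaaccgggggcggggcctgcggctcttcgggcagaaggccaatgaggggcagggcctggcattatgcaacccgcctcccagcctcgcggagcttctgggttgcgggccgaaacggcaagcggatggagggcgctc
Trim63: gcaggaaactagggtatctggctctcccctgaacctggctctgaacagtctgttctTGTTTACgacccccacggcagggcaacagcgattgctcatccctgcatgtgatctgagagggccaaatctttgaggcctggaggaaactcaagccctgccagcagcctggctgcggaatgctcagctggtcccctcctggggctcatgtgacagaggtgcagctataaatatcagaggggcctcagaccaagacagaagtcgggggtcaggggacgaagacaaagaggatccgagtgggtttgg
Pdk4: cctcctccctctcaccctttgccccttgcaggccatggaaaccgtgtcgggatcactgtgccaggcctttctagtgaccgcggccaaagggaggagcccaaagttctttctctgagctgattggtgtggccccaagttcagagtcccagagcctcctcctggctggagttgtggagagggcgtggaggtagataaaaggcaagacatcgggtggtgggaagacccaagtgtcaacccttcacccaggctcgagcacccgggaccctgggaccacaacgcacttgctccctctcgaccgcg
Of the 31 genes named by rule, 20 had a promoter in the RefSeq set used, in 24 windows of 300 bases. Absence from that set, as for Gmppb and Aplnr, does not mean that a gene has no promoter. The windows were searched on both strands for the E-box, the cyclic AMP response element TGACGTCA and the FOXO motif (TGTTTAC or GTAAACA). The E-box was in 1 window of Per1 and 1 of Maff, against 7.15% of all 32851 windows. The cyclic AMP response element was in 1 window of Maff, against 1.79%. The FOXO motif was in that of Trim63, against 3.65%. In 24 windows such counts are too few to compare with these shares. A match is a string of letters and shows no binding.

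Immediate-early genes, which are switched on within minutes by activity or stress, were the list with the most members at an unadjusted p under 0.05, with 11 of 22 higher and none lower against 2.93% higher and 2.57% lower over all genes. None passed the adjustment. In all 21 of 22 were higher and 13 were higher in every line, with a median of 0.56 (0.54 in KO, 0.79 in P32L and 0.11 in R287Q). Of the 22, 6 averaged under 1 TPM in WT and entered the test through the mutant mice, so they could only be higher. These were Nr4a3, Maff, Nr4a2, Egr2, Egr3 and Fosb. Of the other 16, 15 were higher and 7 had an unadjusted p under 0.05, with a median of 0.49. Counted in this way, the glucocorticoid-induced and atrophy list had more higher members at that p, with 8. Nr4a3, a nuclear receptor induced by exercise, was at 0.881, 0.365 and 0.596 TPM in WT and 0.650, 0.910 and 1.08 TPM in KO. P32L mice had 3.30, 2.74 and 1.82 TPM and R287Q mice 0.936, 1.86 and 1.55 TPM. The P32L and R287Q mice lay above WT and KO replicate 1 among them. The difference was 0.66 (SE 0.15, limma adjusted p = 0.378).

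Maff, a small Maf transcription factor, was at 0.465 to 0.731 TPM in WT and 0.670 to 1.79 TPM in the mutants (0.54, limma adjusted p = 0.378). Both genes lie near 1 TPM, where the log2(TPM + 1) scale understates a fold change. Klf6 was at 14.7 to 16.2 TPM in WT and 14.9 to 31.8 TPM in the mutants (0.48, limma adjusted p = 0.488), and Nr4a1 at 13.7 to 25.1 and 17.9 to 50.6 TPM (0.66, limma adjusted p = 0.808). Summed over the list, WT mice had 233 to 389 TPM, KO 294 to 685, P32L 414 to 580 and R287Q 249 to 325, so the R287Q mice lay within the WT range.

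The clock repressor and output list had 13 measured genes, 9 higher and 4 lower, with 6 at an unadjusted p under 0.05, all higher, against 2.93% of all genes. The median was 0.15, made up of 0.01 in KO, 0.19 in P32L and -0.01 in R287Q, and it was 0.05 (7 higher, 6 lower) without WT replicate 3. Besides Per1, the 6 were Ciart (0.68, limma adjusted p = 0.504), Per2 (0.33, adjusted p = 0.668), Dbp (0.32, adjusted p = 0.673), Nr1d2 (0.16, adjusted p = 0.844) and Per3 (0.15, adjusted p = 0.860). Of these, Per2 averaged under 1 TPM in WT and entered the test through the mutant mice, so it could only be higher. Of the other 12 measured genes, 8 were higher and 5 had an unadjusted p under 0.05, with a median of 0.10. Per2, Dbp and Nr1d2 differed in KO by only 0.01, 0.03 and 0.00, against 0.57, 0.50 and 0.24 in P32L and 0.42, 0.44 and 0.22 in R287Q. In these 3 genes the common value thus came from P32L and R287Q, while over the list the KO and R287Q medians lay near 0. Without WT replicate 2 Per2 differed by 0.19, and without WT replicate 3 Per3 differed by 0.08.

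Several other genes ranked high. Sat1 encodes spermidine/spermine N1-acetyltransferase, the enzyme that starts polyamine breakdown. It was at 18.8, 16.8 and 15.3 TPM in WT, 21.3, 25.2 and 26.3 TPM in KO, 24.1, 23.6 and 22.5 TPM in P32L, with 20.8, 20.2 and 22.2 TPM in R287Q. All 9 mutant mice lay above WT, and the 3 lines lay at 0.49, 0.45 and 0.30 above it, together 0.41 (SE 0.08, 95% interval 0.23 to 0.59, limma adjusted p = 0.259). Of the 9 measured polyamine genes Sat1 alone was higher at an unadjusted p under 0.05, and Sms, spermine synthase, was lower (-0.20, limma adjusted p = 0.889; -0.11 without WT replicate 2).

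Pim3, a serine/threonine kinase, was at 18.7, 16.2 and 15.9 TPM in WT, 19.6, 22.3 and 22.4 TPM in KO, 26.6, 25.6 and 22.0 TPM in P32L, with 21.8, 22.7 and 26.6 TPM in R287Q. No mutant mouse reached down to WT. The difference was 0.43 (SE 0.09, limma adjusted p = 0.263). Both Sat1 and Pim3 passed under median-of-ratios scaling of the libraries (adjusted p = 0.0280 for each), and Sat1 under quantile normalization (adjusted p = 0.0499).

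Nabp1, which encodes a single-stranded DNA binding protein, was at 3.66 to 5.07 TPM in WT and 5.33 to 7.09 TPM in the mutants (0.42, SE 0.08, limma adjusted p = 0.259). H2-K2, a class I histocompatibility pseudogene that can share reads with its functional relatives, was at 1.21 to 1.32 TPM in WT and 1.38 to 1.96 TPM in the mutants (0.27, limma adjusted p = 0.263). In neither gene did a mutant mouse overlap WT. Chac1, which breaks down glutathione and responds to the integrated stress response, gave the largest difference of any list member, 1.68 (SE 0.45, limma adjusted p = 0.504). It was at 5.35, 23.5 and 11.7 TPM in WT, 61.4, 95.8 and 62.2 TPM in KO, 84.6, 20.6 and 57.6 TPM in P32L, with 23.2, 10.6 and 23.2 TPM in R287Q. All KO mice lay above WT and all R287Q mice within its range. Its upstream factor Ddit3 pointed the other way, from 6.01 to 8.95 TPM in WT to 4.14 to 6.27 TPM in the mutants (-0.36, limma adjusted p = 0.808). Without WT replicate 1, the highest mouse, Ddit3 differed by -0.19.

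**Figure D2:**
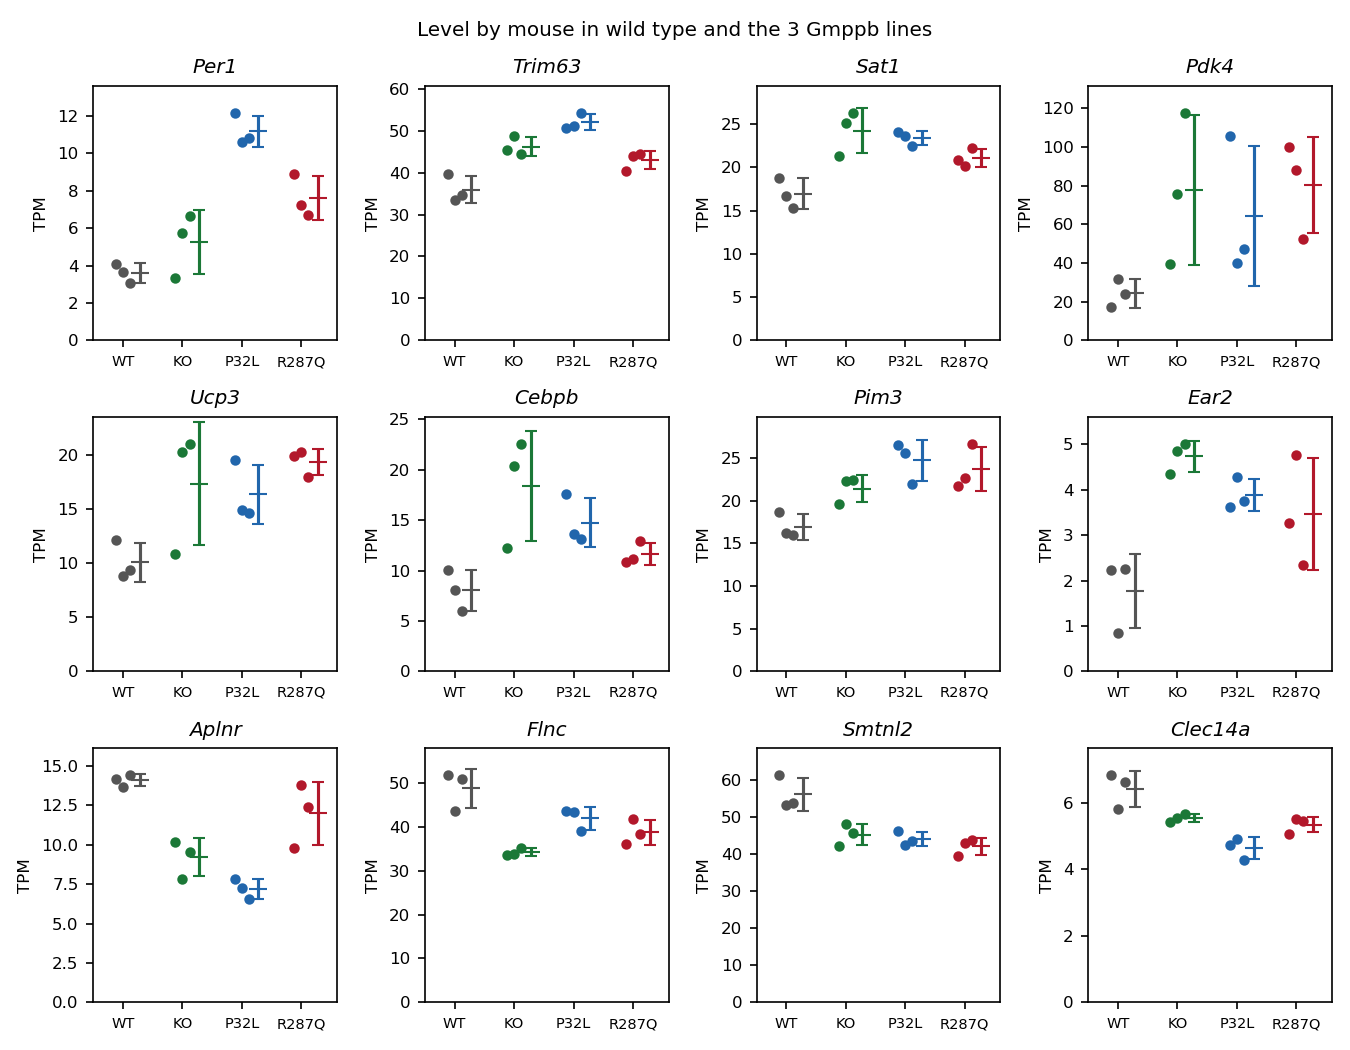
Level in TPM of 12 genes in each mouse, with 3 points per group and the mean and SD as a bar beside them, every axis starting at 0. In Trim63, Sat1, Pdk4, Cebpb, Pim3 and Ear2 all 9 mutant mice stand above the 3 WT mice, in Flnc, Smtnl2 and Clec14a all stand below, and in Per1, Ucp3 and Aplnr 1 mutant mouse lies within the WT range.

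Of the 10 lower genes of lowest p, 2 (Aplnr and Clec14a) were on the endothelial marker list and 1 (Flnc) on that of mechanical stress and Z-disc genes. Aplnr, the apelin receptor of endothelial cells, was at 14.2, 13.7 and 14.4 TPM in WT and 10.2, 7.85 and 9.54 TPM in KO. P32L mice had 7.81, 7.24 and 6.53 TPM and R287Q mice 9.81, 13.8 and 12.4 TPM. R287Q replicate 2 lay within the narrow WT range and the other 8 mutant mice below it. The difference was -0.56 (SE 0.10, 95% interval -0.78 to -0.34, limma adjusted p = 0.259). P32L against WT alone passed (-0.88, adjusted p = 0.0418).

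Clec14a, an endothelial surface lectin, was at 6.83, 5.80 and 6.63 TPM in WT and 5.42, 5.53 and 5.65 TPM in KO. P32L mice had 4.72, 4.92 and 4.29 TPM and R287Q mice 5.08, 5.51 and 5.44 TPM. No group overlapped WT, with a difference of -0.27 (SE 0.06, limma adjusted p = 0.378). Kdr, the main VEGF receptor, was at 4.86 to 6.75 TPM in WT and 3.56 to 5.46 TPM in the mutants (-0.33, SE 0.09, limma adjusted p = 0.557). Of the 16 measured endothelial markers, however, 6 were higher and 10 lower, with a median of -0.07, and only these 3 had an unadjusted p under 0.05, all lower, against 2.57% of all genes. The list stood at 9 higher and 7 lower, and Kdr at -0.21, without WT replicate 1. The summed endothelial level was 104 to 140 TPM in WT, 93.0 to 118 in KO, 86.2 to 109 in P32L and 102 to 129 in R287Q. Its part in the values of Aplnr was not tested.

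Flnc encodes filamin C, the muscle actin crosslinker of the Z-disc that unfolds under tension. It was at 51.7, 43.5 and 50.9 TPM in WT and 33.4, 33.8 and 35.2 TPM in KO. P32L mice had 43.5, 43.3 and 38.9 TPM and R287Q mice 36.1, 41.7 and 38.3 TPM. The 9 mutant mice lay below WT, but P32L replicate 1 and WT replicate 2 were equal to 3 digits. The difference was -0.34 (SE 0.08, 95% interval -0.51 to -0.18, limma adjusted p = 0.344). All 18 measured genes of the mechanical stress and Z-disc list were lower, 10 of them in every line, with a median of -0.14 against -0.01 over all genes. Flnc alone had an unadjusted p under 0.05. Klhl41 (-0.18, limma adjusted p = 0.922) and Klhl40 (-0.16, adjusted p = 0.982), kelch proteins that stabilise thin filament proteins, were other members. Klhl41 differed by -0.12 without WT replicate 2 and Klhl40 by -0.08 without WT replicate 1, while the list kept 15 of 18 lower without any one WT mouse. The summed level was 1778 to 1823 TPM in WT, 1626 to 1947 in KO, 1570 to 1905 in P32L and 1563 to 1626 in R287Q.

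Smtnl2, a smoothelin-like protein of striated muscle, was at 61.4, 53.4 and 54.0 TPM in WT, 42.3, 48.1 and 45.8 TPM in KO, 46.3, 42.7 and 43.7 TPM in P32L, with 39.6, 43.1 and 43.8 TPM in R287Q. All mutant mice lay below all WT mice by a clear gap. The difference was -0.35 (SE 0.07, 95% interval -0.51 to -0.19, limma adjusted p = 0.263). Under median-of-ratios scaling of the libraries it passed (adjusted p = 0.0280).

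Other leading genes on the lower side were scarce transcripts. Cpeb2, a regulator of mRNA translation, was at 1.84 to 2.10 TPM in WT and 1.13 to 1.76 TPM in the mutants (-0.32, limma adjusted p = 0.259), without overlap. Glt28d2, a glycosyltransferase-domain gene, was at 1.35 to 1.37 TPM in WT and 0.946 to 1.15 TPM in the mutants (-0.22, adjusted p = 0.259), also without overlap. Afdn, the junction protein afadin, showed no overlap (1.57 to 1.91 against 1.09 to 1.55 TPM, -0.24, adjusted p = 0.378). Relt, a tumour necrosis factor receptor family member, overlapped at KO replicate 2, with -0.36 (adjusted p = 0.378). Slc16a10, an aromatic amino acid transporter, differed by -0.22 (adjusted p = 0.447), and Fam217b by -0.24 (adjusted p = 0.338). Cpeb2, Glt28d2, Afdn and Slc16a10 overlap other annotated genes, whose reads cannot be separated from theirs.

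**Figure D3:**
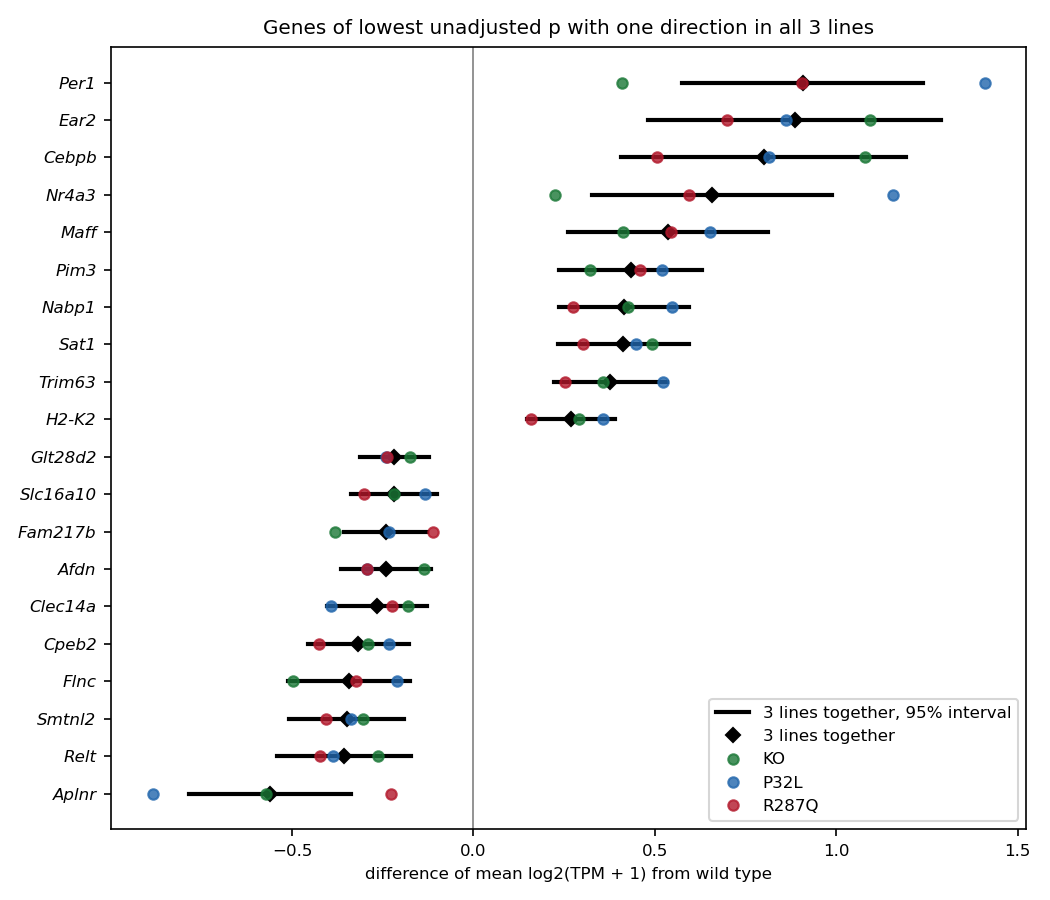
Difference from WT in mean log2(TPM + 1) for the 10 higher and 10 lower genes of lowest unadjusted p with one direction in all 3 lines, with a black diamond and its 95% limma interval for the lines together and a coloured point per line. The genes were ranked by p, so their intervals stop short of 0, none passed the adjustment, and in Per1 the points run from 0.41 in KO to 1.41 in P32L.

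Genes with the largest difference in their least affected line make another ranking, which favours large and variable genes. On the higher side 29 genes of the 9152 had at least 0.5 in every line, and on the lower side 11 had. The filter favours the higher side. Of the genes tested, 185 averaged under 1 TPM in WT and entered through the mutant mice, so they could only be higher. Only 56 averaged under 1 TPM in the mutant mice and entered through WT. The excess of 29 over 11 is therefore not read as a lean to higher levels. Besides Pdk4, the leading 5 included Actc1, cardiac actin, a marker of immature or regenerating fibres. It was at 94.2, 27.2 and 42.3 TPM in WT, 75.5, 152 and 107 TPM in KO, 80.4, 88.9 and 128 TPM in P32L, with 128, 183 and 141 TPM in R287Q. WT replicate 1 lay among the mutant mice, and the difference was 1.26 (SE 0.32, limma adjusted p = 0.468). Of 10 other genes of myogenesis and regeneration, 4 were higher and 6 lower, with a median of -0.07. The leading members were higher, namely H19, an imprinted noncoding RNA (0.48, limma adjusted p = 0.836), and Myog, the myogenic factor myogenin (0.36, adjusted p = 0.946). H19 alone had an unadjusted p under 0.05, and its lines differed by 0.66 in KO, -0.0069 in P32L and 0.79 in R287Q, while Myog was higher in every line.

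Mir703 was at 0.932, 1.69 and 1.58 TPM in WT, 3.45, 3.47 and 4.75 TPM in KO, 6.03, 3.94 and 2.21 TPM in P32L, with 3.24, 4.43 and 4.75 TPM in R287Q. All mutant mice lay above all WT mice, and the lines differed from WT by 1.03, 1.02 and 1.10, together 1.05 (SE 0.20, limma adjusted p = 0.259). The annotated hairpin of 109 bases lies within Cfap299, and the library was not a small RNA library, so the reads need not come from the mature microRNA. Its mature sequence from RefSeq (chr5:98475616-98475636, minus strand, GRCm38.p6) is given to show what the annotated product is, with bases 2 to 8, the seed, in capitals.
miR-703: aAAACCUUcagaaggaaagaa
C330011M18Rik, antisense to Rfx1, was listed at 0 in all 3 WT mice and in 2 of the 9 mutant mice, and at 1.10 to 2.72 TPM in the other 7. It entered the test through the mutant mice, so it could only be higher. Cyp2e1, a cytochrome P450 of lipid and ethanol metabolism, ranged from 4.49 to 14.3 TPM in WT and from 3.72 to 45.6 TPM in the mutants (1.18, SE 0.78, limma adjusted p = 0.999).

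On the lower side this ranking held Rpph1, the RNA of ribonuclease P, at 4.99, 4.61 and 2.70 TPM in WT and 1.02 to 3.86 TPM in the mutants (-0.83, SE 0.24, limma adjusted p = 0.581). Odf3l2, a sperm tail gene, was at 2.72, 19.8 and 11.1 TPM in WT and 1.46 to 6.86 TPM in the mutants (-1.06, SE 0.45, adjusted p = 0.876), so its WT mean rested on 2 mice, and without WT replicate 2 it differed by -0.52. The other 3 were Gm7327 and Gm10774, processed pseudogenes, and Gm20633, antisense to histone genes, with differences of -1.42, -1.08 and -0.77. Without WT replicate 1 Gm10774 differed by -0.38 and without WT replicate 2 by -0.47, and without WT replicate 3 Gm20633 differed by -0.36. All 5 overlapped between groups.

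Markers of immune and other cells were compared between the same mice. Ear2, a ribonuclease of eosinophils and some macrophages, was at 2.23, 0.835 and 2.25 TPM in WT, 4.35, 4.84 and 4.998 TPM in KO, 3.62, 4.28 and 3.75 TPM in P32L, with 3.26, 4.77 and 2.35 TPM in R287Q. No mutant mouse overlapped WT, though R287Q replicate 3 was close, and the difference was 0.89 (SE 0.18, limma adjusted p = 0.263). Ear2 belongs to a family of near-identical genes and overlaps Gm49101, so its reads are uncertain. Only 5 of 12 neutrophil and eosinophil markers reached 1 TPM on average, 3 of them (Retnlg, S100a9 and Ngp) through the mutant mice alone, so their count is not read. All 12 summed to 3.54 to 7.30 TPM in WT, 6.21 to 13.4 in KO and 5.83 to 23.0 in P32L, and to 56.9, 63.9 and 5.09 TPM in R287Q. R287Q replicates 1 and 2 stood apart, and the neutrophil genes S100a8 and Ngp were listed at 0 in at least 1 mutant mouse.

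All 12 measured macrophage and monocyte markers were higher, 11 of them in every line, with a median of 0.47 (0.83 in KO, 0.27 in P32L and 0.25 in R287Q), and 3 had an unadjusted p under 0.05. Over all genes 4298 of 9152 were higher, 20.2% in every line, and 2.93% were higher at that p. Ctss averaged under 1 TPM in WT and entered the test through the mutant mice, so it could only be higher. The other 11 markers were all higher, 2 of them at an unadjusted p under 0.05, with a median of 0.49. Without WT replicate 2 the 12 markers stood at 9 higher and 3 lower, with a median of 0.06. The leading one was Mpeg1, the pore-forming perforin-2, at 2.56 to 5.75 TPM in WT and 4.89 to 12.6 TPM in the mutants (0.59, SE 0.19, limma adjusted p = 0.673; 0.31 without WT replicate 2). Lyz2, lysozyme, ran from 24.9 to 70.4 TPM in WT and from 40.6 to 106 TPM in the mutants (0.49, adjusted p = 0.999; 0.07 without WT replicate 2). Summed over the 16 listed markers, WT replicates 1, 2 and 3 had 171, 53.3 and 123 TPM, against 157 to 267 in KO, 98.7 to 151 in P32L and 92.4 to 157 in R287Q. P32L and R287Q thus lay within the WT range, and WT replicate 2 was the lowest of the 12 mice. How far these markers bear on the genes above was not tested.

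Fibroblast markers were higher in 14 of 14 (median 0.18), Schwann cell markers in 8 of 8 (0.31), erythroid markers in 5 of 5 (0.29) and adipocyte markers in 7 of 8 (0.31), with none at an unadjusted p under 0.05. Mal (Schwann cell) and Lep (adipocyte) averaged under 1 TPM in WT and entered through the mutant mice, so they could only be higher. Without these genes Schwann cell markers were higher in 7 of 7 (median 0.32) and adipocyte markers in 6 of 7 (0.37). Without WT replicate 2, whose fibroblast sum was 259 TPM against 478 and 320 in the other WT mice, fibroblast markers stood at 5 higher and 9 lower (median -0.03) and erythroid markers at 3 and 2 (0.03). Without WT replicate 1 the Schwann cell median was 0.15 (6 higher, 2 lower) and the adipocyte median 0.03 (5 and 3). Col3a1, a fibrillar collagen, was at 17.7 to 42.9 TPM in WT and 24.0 to 51.0 TPM in the mutants (0.40, limma adjusted p = 0.999; 0.11 without WT replicate 2). Tenocyte markers were lower in 7 of 7 (median -0.19), led by Comp, a tendon matrix protein (-0.46, adjusted p = 0.965; -0.18 without WT replicate 2). Tenocyte sums were 102, 109 and 39.6 TPM in WT and 43.2 to 102 TPM in the mutants, so WT replicate 3 lay below every mutant mouse. Without WT replicate 1 the tenocyte median was -0.09 (3 higher, 4 lower), and without WT replicate 3 it was -0.56. Smooth muscle and pericyte markers were lower in 6 of 10 (median -0.09) and satellite cell markers in 4 of 5 (-0.04). Cnn1 of the former and Vcam1 of the latter also averaged under 1 TPM in WT. Without them 3 of 9 and 0 of 4 were higher (medians -0.11 and -0.05). In every one of these lists the summed levels of mutant and WT mice overlapped.

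**Figure D4:**
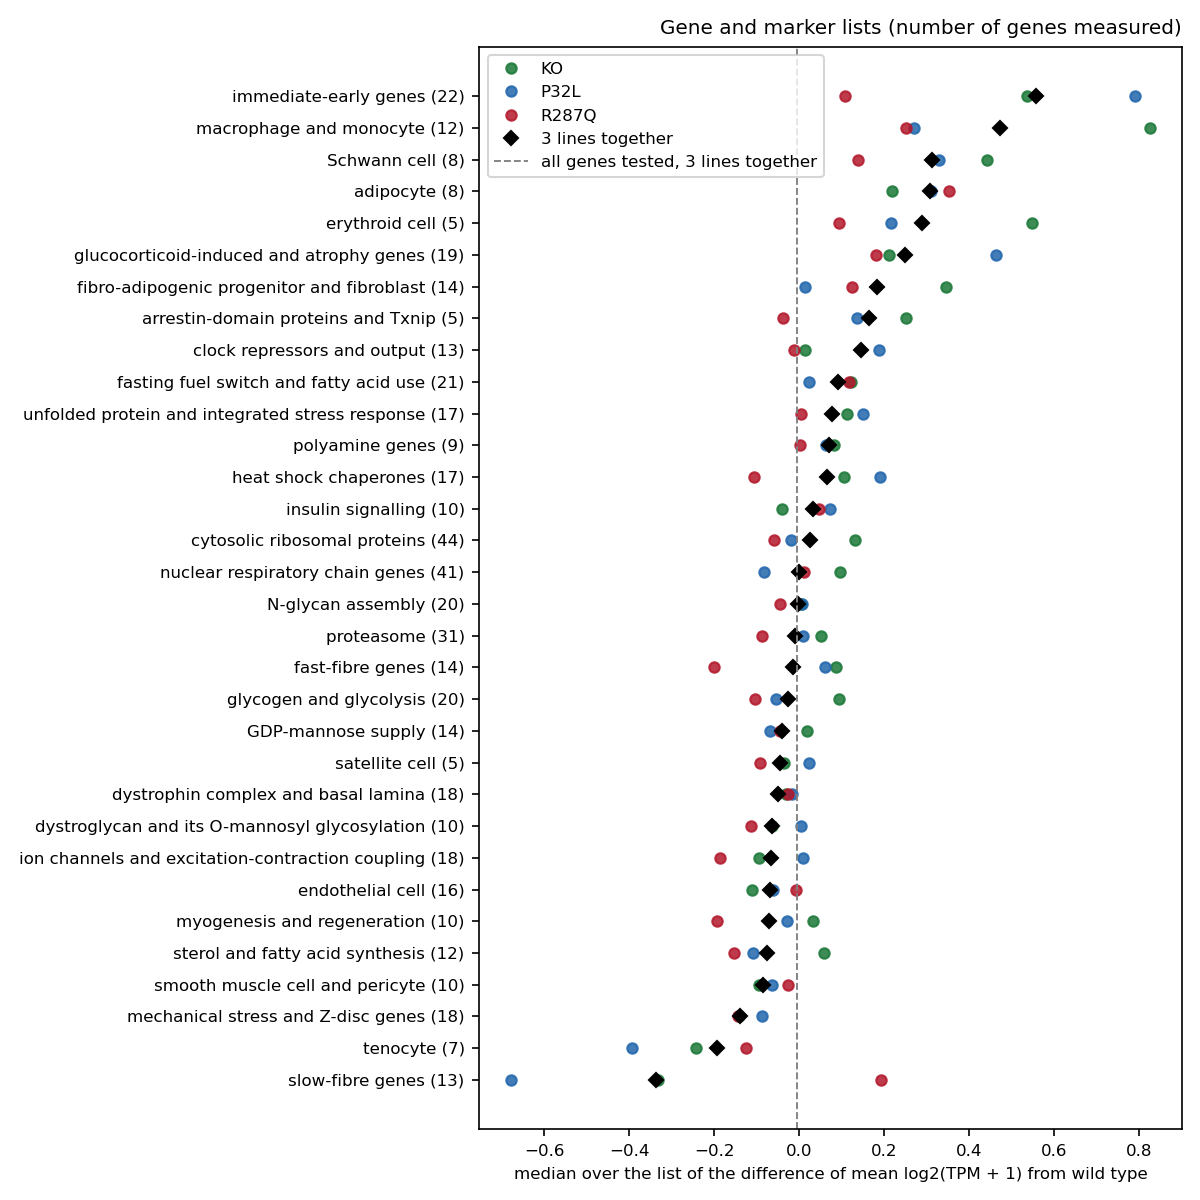
Median difference from WT over each list with at least 4 measured genes, where these are no fewer than those not measured, in mean log2(TPM + 1), for KO, P32L, R287Q and the 3 lines together, with a dashed line at the median of all genes tested. Immediate-early genes and macrophage markers stand farthest to the right (0.56 and 0.47, the latter 0.06 without WT replicate 2), and slow-fibre genes farthest to the left (-0.34), where R287Q (0.19) lies on the other side of the line from P32L (-0.68). Without its 6 members that averaged under 1 TPM in WT, the immediate-early median is 0.49.

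Slow-fibre genes gave the lowest median, -0.34, and 12 of 13 were lower, but only 2 were lower in every line. KO replicate 2 (55.1 TPM summed over the list), P32L replicate 3 (35.2) and R287Q replicate 3 (77.0) stood apart from the other mutant mice (145 to 468) and from WT (177 to 289). Without any one of them the median was -0.17, -0.09 and -0.13 in that order. Myh7, the slow myosin heavy chain, ranged from 18.6 to 38.7 TPM in WT and from 0.583 to 56.8 TPM in the mutants (-0.89, SE 0.94, limma adjusted p = 0.999). Its 3 lines differed by -0.86, -1.89 and 0.09, so no common direction was present. The fast-fibre list had a median of -0.01, within which Myh1, the myosin of type IIx fibres, was at 265 to 500 TPM in WT and 215 to 459 TPM in the mutants and lower in every line (-0.57, SE 0.22, limma adjusted p = 0.836; -0.85 without WT replicate 3).

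Heat shock chaperones were higher in 13 of 17 (median 0.07), and in 8 of 17 without WT replicate 2 or without WT replicate 3. Hspa1b, an inducible Hsp70 that shares reads with its near-identical copy Hspa1a, differed by 1.46 in KO, 2.11 in P32L and 0.08 in R287Q (1.22 together, SE 0.57, limma adjusted p = 0.928; 0.597 without WT replicate 2). Sterol and fatty acid synthesis genes were lower in 8 of 12 (median -0.08). Their leading members Scd2 (-0.29, adjusted p = 0.668) and Insig1 (-0.21, adjusted p = 0.783) were lower in P32L and R287Q and slightly higher in KO. They are therefore not among the genes with one direction.

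In the housekeeping lists the median differences were 0.02 over 44 cytosolic ribosomal proteins, 0.00 over 41 nuclear respiratory chain genes, -0.01 over 31 proteasome genes and -0.03 over 20 genes of glycogen and glycolysis. These values near 0 average lines on either side of WT. Ribosomal protein medians were 0.13 in KO, -0.02 in P32L and -0.06 in R287Q, those of the respiratory chain 0.096, -0.08 and 0.01, and those of glycogen and glycolysis 0.09, -0.05 and -0.10. Ion channels and excitation-contraction coupling genes were lower in 14 of 18 (median -0.07). The unfolded protein and integrated stress response list was at 0.08 (15 higher of 17, but 8 without WT replicate 2), polyamine genes at 0.07, retinoic acid genes at 0.09, arrestin-domain genes with Txnip at 0.16 and insulin signalling at 0.03. Clock activators had 2 measured genes and the lymphocyte and epidermis lists 1 each, too few to describe.

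Genes without overlap between mutant and WT mice tended to low levels. Of the 67, 59 had an unadjusted p under 0.05. Their median was 2.37 TPM against 3.84 TPM over all 9152 genes, and 49.3% were under 2 TPM against 27.2%. Among those with an annotation, 80.6% were protein coding against 85.1%. None lay within 5 Mb of Gmppb on chromosome 9, where 101 genes were tested. With 0.732% of all genes in this class, 101 genes are too few to read anything from that. Besides those above they included Nhlrc1 (malin, a ubiquitin ligase of glycogen metabolism), at 9.24 to 11.9 TPM in WT and 6.48 to 9.15 TPM in the mutants (-0.39, limma adjusted p = 0.447), and Bves, a muscle membrane protein linked to limb-girdle dystrophy in people, at 5.08 to 5.86 against 4.24 to 5.04 TPM (-0.19, adjusted p = 0.783). On the higher side, Socs2, an inhibitor of growth hormone signalling, was at 1.13 to 1.23 TPM in WT and 1.28 to 3.20 TPM in the mutants (0.48, adjusted p = 0.557). These 3 were chosen after their values were seen.

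The number of genes with one direction depended on single mice. Of the 2116 genes lower in every line, WT replicate 1 was the highest WT mouse for 1435, replicate 2 for 500 and replicate 3 for 181. Of the 1849 genes higher in every line, WT replicate 2 was the lowest for 875, replicate 3 for 674 and replicate 1 for 300. Without WT replicate 1 the count was 3501 higher and 1279 lower, and without WT replicate 3 it was 1540 higher and 3525 lower, so the former turned the balance over and the latter widened it. Without WT replicate 2 it was 1655 and 2597. The balance also turned without KO replicate 1 (2021 higher, 1630 lower), P32L replicate 2 (1836 and 1631) and R287Q replicate 1 (2055 and 1716). Without any one of the other mutant mice lower genes outnumbered higher ones, by at most 2418 to 1452. Genes without overlap numbered 317, 200 and 280 without WT replicate 1, 2 and 3. Leaving out a mouse can only keep or raise this count, because fewer mice have to be separated, so the rise itself is not read.

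**Figure D5:**
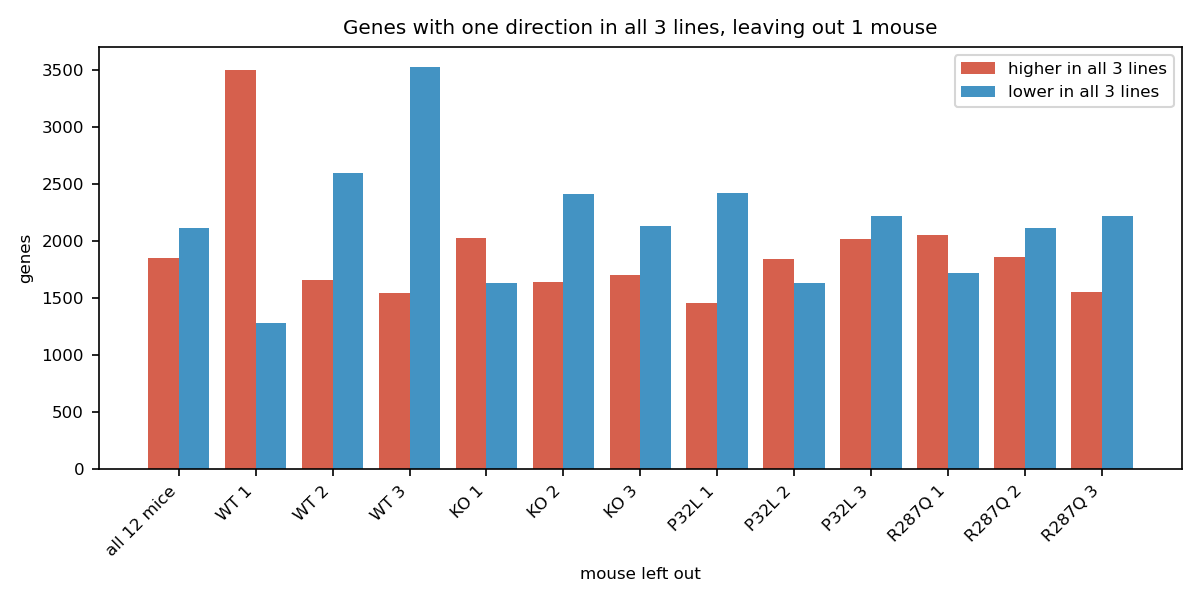
Number of genes higher (red) and lower (blue) than WT in all 3 lines, with all 12 mice and with each mouse left out. Higher genes go from 1849 to 3501 without WT replicate 1, and lower genes from 2116 to 3525 without WT replicate 3.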

How the data were processed

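The gastrocnemius RNA of 12 mice in 4 groups of 3 was sequenced. Per the labels' protocols, RNA was isolated with Trizol and libraries were made with an NEBNext Ultra kit, which does not mark strand. Per the submitters' processing notes, the tools were FastQC, HISAT2, StringTie and DESeq2 and the build mm10, and no version or annotation is given there. The authors deposited log2 values, which summed to 997591 to 998739 per library once 2 was raised to each and 1 taken off, and were read as log2(TPM + 1). Any adjustment made before deposit is not given. Values at 0 (23.9% to 30.3% per library) can be absent transcripts or failed estimates, and mitochondrially encoded transcripts took 53% to 58.4% of TPM, so other genes share the rest.

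Genes averaging 1 TPM or more were fitted in limma 3.58.1 under R 4.3.3 (limma-trend), with 1 mean per group and all 12 libraries together (8 residual and 3.11 prior degrees of freedom). The contrast was the mean of the 3 line means less WT, two-sided, Benjamini-Hochberg adjusted, threshold 0.05. The F test among lines used the same fit. Named genes were Gmppb, the 10 genes per direction of lowest unadjusted p with one sign in all lines, leaving out predicted models and microRNA genes, the 5 per direction with the largest smallest change, and 2 per list. Others named are further members of the 25 gene and 12 marker lists or are said to be chosen afterwards. Members and lists were chosen with earlier results of these data known. Positions come from GENCODE M21 (mm10), where 29334 symbols (96.2%) were found, and promoters and the microRNA come from RefSeq on GRCm38.p6. The design was written for TPM, and its pseudocount of 1 was already in the deposited values. Alternatives covered the pseudocount, filter, scaling, variance model, grouping, block, and leaving out each line and mouse.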

Additional observations from a re-analysis of the deposited data

Results flagged for a closer look

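A moderated F test among the 3 lines (limma, Benjamini-Hochberg over 9152 genes) found 4 genes whose difference from WT was not the same in every line, so a mean over the lines does not describe them. Cyp26b1, which breaks down retinoic acid, had an adjusted p of 0.00472. It was at 6.36, 5.65 and 12.7 TPM in KO against 0.776, 1.03 and 0.906 TPM in WT, 1.31, 0.906 and 0.435 TPM in P32L, with 0.444, 0.532 and 0.412 TPM in R287Q. All KO mice lay above every other mouse. Cyp26b1 averaged under 1 TPM in WT, P32L and R287Q and entered the test through the KO mice, so in KO it could only be higher.

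Rpl26-ps6, a processed pseudogene that can share reads with Rpl26, had an adjusted p of 0.0199. P32L mice had 4.24, 2.74 and 3.17 TPM and R287Q mice 1.94, 2.29 and 1.64 TPM, against 0.394, 0.634 and 0.995 TPM in KO and 0.780, 0.918 and 0.795 TPM in WT. Both missense lines lay above WT and KO. Every WT and KO value was under 1 TPM, so Rpl26-ps6 entered the test through the missense lines and could only be higher in them. The processed pseudogenes Gm7846 and Gm10269 each had an adjusted p of 0.0212. Gm7846 was at 11.3 to 12.9 TPM in KO and 6.32 to 6.44 TPM in R287Q, with 7.91 to 9.85 TPM in WT, and Gm10269 at 2.20 to 2.65 TPM in WT, 2.79 to 3.13 TPM in P32L and only 1.46 to 1.69 TPM in R287Q.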

How the results depend on the processing

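The count of 0 genes called became 29 of 30488 (15 higher, 14 lower) with no filter on low values. It was 3 under median-of-ratios scaling (Sat1 and Pim3 higher, Smtnl2 lower), 1 under quantile normalization (Sat1) and 2 without the KO line (Per1 and Rpl26-ps6). It ranged from 0 to 1 when each mouse was left out, with Per1 called without KO replicate 1 (adjusted p = 0.0144). Genes with one direction numbered 12746 of 30488 with no filter and 1529 of 3842 at a mean of at least 5 TPM, against 3965 of 9152.

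Genes without overlap numbered 260 of 30488 with no filter and 16 of 3842 at 5 TPM, against 67 of 9152. They numbered 112 under median-of-ratios (49 higher, 63 lower), 124 under quantile normalization (46 and 78) and 102 without mitochondrial genes (33 and 69), against 37 and 30. They numbered 204, 153 and 188 without the KO, P32L or R287Q line, and 73 to 317 with 1 mouse left out. With fewer mice to separate, these last counts could only stay or rise. Genes that differed among the lines numbered 50 of 30488 with no filter, 1 of 3842 at 5 TPM, 0 without KO or R287Q, and 1 to 5 with 1 mouse left out. They were not recomputed with the 9 mutants as one group, and Gmppb had no value at 5 TPM.

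Same-numbered mice did not deviate together (1 of 18 pairs correlated over 0.1, range -0.526 to 0.244). With a replicate block 0 genes were called, 287 had an unadjusted p under 0.05 against 503, and 1 differed among the lines. Gmppb ran from -0.1396 to 0.0755 with 1 mouse left out, turning positive without WT replicate 1 (0.0755) and R287Q replicate 1 (0.0035). Of 2231 values of 87 named genes under 26 settings, 2219 kept direction and side of the threshold, 7 passed it and 5 turned: Cyp26b1 (-0.21) and Chodl (0.0022) without KO, Dpagt1 (0.0078) and Chodl (0.0698) without WT replicate 1, and Ly6a (-0.0334) without WT replicate 2. With 1 mouse left out Dpagt1 ran from -0.1836 to 0.0078, Chodl from -0.1590 to 0.0698 and Ly6a from -0.0334 to 0.5107. The cause was not tested. With 3 WT mice, differences below about 0.198 lie within the 95% interval of the typical gene.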
